A study of Mus musculus with 3 samples.

Results

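The 10 genes described here encode transcriptional regulators of lymphoid development, followed across 3 single-cell RNA libraries of mouse bone marrow. They are Ebf1, Pax5, Ikzf1, Tcf3, Satb1, Tox, Bcl11a, Mn1, Spib and Foxo1, were chosen by gene symbol, and make up 10 of the 32285 genes in the deposited count matrices. The libraries are LSK (by the usual meaning, lineage-negative cells with Sca-1 and Kit, the gate of stem cells and multipotent progenitors), LK (lineage-negative cells with Kit, mostly myeloid and erythroid progenitors) and TBM, the total bone marrow. Each gate is 1 library. Marrow was taken from leg, hip and spine bones, mature cells were depleted with antibodies to surface proteins that include CD45R and CD5, and sorted cells were run on the 10x Genomics 3′ platform. The labels give no genotype, treatment, strain, sex, age or number of mice, and leave unstated whether the LK gate excluded cells with Sca-1 and whether the lineage enrichment was also applied to the TBM cells.

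B cells arise from progenitors that carry the receptor Flt3 and then switch on Dntt, the gene for the polymerase that adds bases where antigen receptor genes are joined. The E protein encoded by Tcf3 and the zinc finger protein Ikaros (Ikzf1) act early on this path. Ebf1, together with Foxo1, then starts the B cell programme, and Pax5 holds cells to it.

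After filtering, LSK held 1067 cells with 11836820 UMIs, LK 3461 cells with 49936180 UMIs and TBM 4217 cells with 21958139 UMIs. A UMI marks 1 captured RNA molecule, and the median cell had 9688 UMIs in LSK, 13683 in LK and 3347 in TBM. Levels are CPM (UMIs of the gene scaled to 1000000 UMIs of the library or class), and square brackets hold exact 95% intervals that cover counting error only. With 1 library per gate no difference has a replicate check and none was tested. A level summed over cells does not tell more cells with the gene from more RNA per cell, so shares of cells with a UMI are given beside it, after each cell was thinned to 2000 UMIs. Thinning left out 0 LSK, 9 LK and 1288 TBM cells with fewer UMIs. Kit, the receptor of both progenitor gates, measured 81.3 CPM in LSK, 34.4 CPM in LK and 7.61 CPM in TBM, and Ly6a, the gene for Sca-1, 101, 7.75 and 30.9 CPM. LSK and LK shared 6 cell barcodes, LSK and TBM 6, and LK and TBM 25.

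On the GRCm38 build, Ebf1 lies at chr11:44617317-45008091, Pax5 at chr4:44524757-44710487, Spib at chr7:44525993-44532071, Foxo1 at chr3:52268336-52353221 and Tcf3 at chr10:80409514-80433647. Ikzf1 lies at chr11:11685003-11772926, Bcl11a at chr11:24078056-24174123, Satb1 at chr17:51736187-51833290, Tox at chr4:6686353-6991557 and Mn1 at chr5:111417362-111457033, and all 10 are annotated as protein coding. The 250 bases before the start site are printed for Ebf1, Pax5, Spib and Foxo1, the genes found together in B cells below, as RefSeq promoters of build GRCm38.p6 read on the gene's strand, with the EBF motif match in capitals. They span chr11:44617850-44618099 on the plus strand (the first of 2 listed for Ebf1), chr4:44710695-44710944 on the minus strand, chr7:44532072-44532321 on the minus strand and chr3:52268087-52268336 on the plus strand.
Ebf1: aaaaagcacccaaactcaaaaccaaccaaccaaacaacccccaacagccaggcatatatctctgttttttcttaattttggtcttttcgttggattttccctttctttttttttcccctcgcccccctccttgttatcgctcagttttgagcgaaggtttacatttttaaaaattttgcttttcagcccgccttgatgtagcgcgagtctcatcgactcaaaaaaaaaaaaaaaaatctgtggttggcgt
Pax5: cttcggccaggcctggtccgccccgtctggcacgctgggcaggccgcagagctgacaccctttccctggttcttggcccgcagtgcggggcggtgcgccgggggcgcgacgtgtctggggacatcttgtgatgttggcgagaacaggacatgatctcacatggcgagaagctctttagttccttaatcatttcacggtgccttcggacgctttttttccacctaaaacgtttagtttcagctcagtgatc
Spib: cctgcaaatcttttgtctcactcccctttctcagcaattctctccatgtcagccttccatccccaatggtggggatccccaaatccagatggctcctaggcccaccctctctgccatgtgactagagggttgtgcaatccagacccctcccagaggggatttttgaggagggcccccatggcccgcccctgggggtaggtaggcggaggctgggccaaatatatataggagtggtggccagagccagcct
Foxo1: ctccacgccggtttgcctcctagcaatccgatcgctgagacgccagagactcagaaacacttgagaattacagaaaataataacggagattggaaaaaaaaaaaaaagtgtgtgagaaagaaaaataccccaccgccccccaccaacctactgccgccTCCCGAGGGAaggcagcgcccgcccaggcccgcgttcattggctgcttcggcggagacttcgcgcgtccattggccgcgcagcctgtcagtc

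Both strands were searched for an EBF motif (TCCC and GGGA around 2 free bases), an E-box of the kind E proteins bind (CAGCTG), an ETS motif (GAGGAAGT) and a FOXO motif (TGTTTAC), which occur in 0.779%, 13%, 2.44% and 3.17% of 32851 such promoters. RefSeq promoters were listed for 8 of the 10 genes (14 promoters). Foxo1 held the EBF letters 92 bases before its start, and 1 Satb1 promoter held the E-box letters 64 bases before its start. The motifs matched nowhere else in these promoters and did not overlap. A match is a description of letters and not a binding site.

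The 10 genes divided by gate. Tox, Mn1 and Bcl11a were highest in LSK, and Ebf1, Pax5, Spib and Foxo1 were highest in total marrow. Ikzf1, Tcf3 and Satb1 each differed by less than 2-fold across the 3 gates. Tox, an HMG-box protein best known in T cells, measured 29.9 CPM [26.9, 33.2] in LSK, 1.94 CPM [1.58, 2.37] in LK and 2.14 CPM [1.57, 2.85] in TBM. LSK stood apart, and the LK and TBM intervals overlapped. Mn1, a coactivator known from leukaemia, measured 11.2 CPM [9.41, 13.3] in LSK, 0.801 CPM [0.572, 1.09] in LK and 0.455 CPM [0.218, 0.838] in TBM, where it had 10 UMIs. Its LK and TBM intervals overlapped as well. Bcl11a, a zinc finger protein of early B cells and plasmacytoid dendritic cells, measured 96.4 CPM [90.9, 102] in LSK, 53.8 CPM [51.8, 55.9] in LK and 43.0 CPM [40.3, 45.9] in TBM, with no overlap. Among thinned cells, a Tox UMI was present in 6.65% in LSK, 0.753% in LK and 0.546% in TBM, and a Mn1 UMI in 3.37%, 0.174% and 0.0683%.

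The B cell factors were highest in total marrow. Ebf1 measured 5.41 CPM [4.16, 6.90] in LSK, 0.0801 CPM [0.0218, 0.205] in LK and 453 CPM [444, 462] in TBM. Pax5 had 2 UMIs in LSK (0.169 CPM), 0 in LK, which allows a level of up to 0.0601 CPM, and 456 in TBM (20.8 CPM). Spib, an Ets factor of B cells and plasmacytoid dendritic cells, had 1 UMI in LSK (0.0845 CPM), 5 in LK (0.100 CPM) and 1959 in TBM (89.2 CPM). Both were thus at or near the detection limit in the progenitor gates. Foxo1 was measured in every gate, at 6.93 CPM [5.51, 8.60] in LSK, 2.68 CPM [2.25, 3.18] in LK and 19.5 CPM [17.7, 21.5] in TBM, with no overlap. An Ebf1 UMI was present in 0.281% of thinned cells in LSK, 0.0290% in LK and 20.1% in TBM.

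Ikzf1 measured 80.8 CPM in LSK, 51.4 CPM in LK and 98.7 CPM in TBM. Tcf3 measured 115 CPM in LSK, 95.8 CPM in LK and 126 CPM in TBM. Satb1, a chromatin organiser of lymphoid progenitors and T cells, measured 32.4 CPM in LSK, 21.2 CPM in LK and 25.9 CPM in TBM. LK was the lowest gate for all 3 genes, and the classes described next show that the flat Satb1 total covers cells with very different levels.

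**Figure D1:**
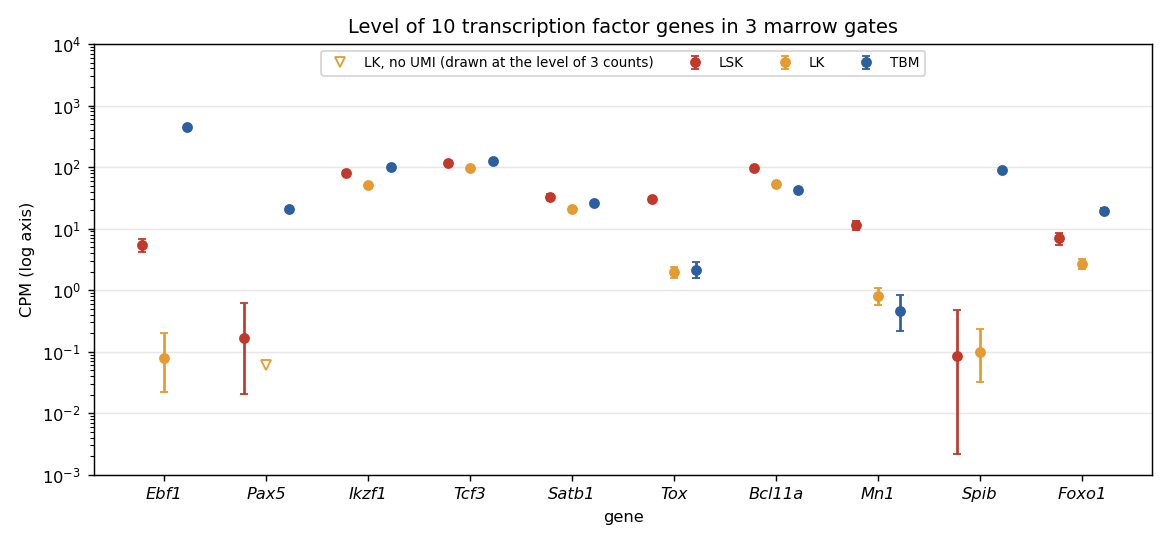
CPM on a log axis (y) of the 10 genes (x) in the LSK, LK and TBM libraries, 1 library per gate, with exact 95% Poisson intervals for counting error as bars. The open triangle marks Pax5 in LK, which had no UMI and is drawn at the level of 3 counts. Tox and Mn1 stand above the other gates in LSK, at 29.9 and 11.2 CPM, and Ebf1 and Spib stand above them in TBM, at 453 and 89.2 CPM.

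Between LSK and LK, LSK was higher by 2-fold or more for 4 of the 10 genes and lower by as much for 0, among genes with at least 20 UMIs over both libraries, against 19.9% and 4.04% of all such genes. They were Ebf1 (log2 ratio 6.08 [4.65, 8.0]), Tox (3.94 [3.62, 4.28]), Mn1 (3.81 [3.29, 4.36]) and Foxo1 (1.37 [0.95, 1.78]). Pax5 and Spib had too few UMIs to count. Without the 3 cells described next, Ebf1 also had too few and 3 genes were higher, with Foxo1 at 1.25. The median log2 ratio was 1.10 over the 8 measured genes and 0.34 over all genes. LSK over TBM gave 3 higher (Mn1, Tox and Bcl11a) and 4 lower (Spib, Pax5, Ebf1 and Foxo1), against 36.9% and 13.1% of all genes, and LK over TBM gave 0 higher and the same 4 lower, against 27.3% and 16.8%. These 3 comparisons share libraries.

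Other lists differed in how many genes were higher in LSK, to be read beside the share of 19.9% of all genes. Of 8 early lymphoid signals, 6 were higher in LSK by 2-fold or more (Il7r, Cd27, Ltb, Kit, Ccr9 and Lax1) and 0 lower, with 1 not measured. Kit, counted among them, is the receptor of both progenitor gates and not particular to lymphoid cells. Ltb, the gene for lymphotoxin beta, measured 144 CPM in LSK and 9.19 CPM in LK, and Ccr9, a chemokine receptor used to enter the thymus, had 21 UMIs in LSK and 3 in LK. Of 5 genes of the E protein and Id network, 3 were higher and 0 lower. Tcf4, an E protein related to Tcf3, measured 65.3 CPM in LSK and 30.1 CPM in LK, and Id2, an inhibitor of E proteins, 19.1 and 7.93 CPM. Of the 12 genes under Ebf1 or Pax5, 5 of 7 measured were higher (Cd79a, Blnk, Vpreb1, Igll1 and Cd72) and 0 lower. The 3 LSK cells described next held most of the LSK UMIs of these genes except Cd72. This count was not repeated without those cells. Of 7 plasmacytoid dendritic cell factors, 3 of 6 measured were higher and 1 lower (Irf8, log2 -2.46). Of 12 relatives of the 10 genes, 1 of 7 measured was higher (Spic, an Ets factor related to Spib, log2 1.59) and 0 lower. Gata3, a T cell factor, was the 1 of 4 measured T and NK cell factors that was higher, at 22.0 CPM in LSK and 3.06 CPM in LK.

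Nearly all Ebf1 RNA of the LSK gate lay in 3 cells. They held 24, 20 and 17 Ebf1 UMIs, which is 61 of the 64 in the library (95.3%), and both of its Pax5 UMIs. The same cells held 45, 41 and 28 UMIs of Dntt, 34, 6 and 31 of Vpreb1, a surrogate light chain gene of B cell precursors, and 19, 7 and 32 of Cd79a, a subunit of the B cell receptor. They are the LSK cells with at least 2 UMIs of both Vpreb1 and Cd79a, and LK had no such cell. Their totals of 33962, 19858 and 19026 UMIs were above the LSK median. Kit gave 3, 0 and 0 UMIs and Ly6a 1, 0 and 4 UMIs in them. The other 1064 LSK cells held 3 Ebf1 UMIs, and LK held 4 in 4 cells.

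Dntt marks the lymphoid end of the LSK gate, and over all LSK cells Satb1 and Mn1 were higher with it. Satb1 measured 105 CPM [90.7, 121] in the 152 LSK cells with a Dntt UMI and 18.7 CPM [16.1, 21.6] in the 915 without, a log2 ratio of 2.49 [2.19, 2.78]. Mn1 measured 28.1 CPM [21.0, 36.7] in Dntt+ cells and 8.04 CPM [6.38, 10.0] in Dntt- cells, a log2 ratio of 1.80 [1.27, 2.32]. Neither pair of intervals overlapped. After thinning, 21.7% of Dntt+ and 4.04% of Dntt- cells held Satb1, and 10.5% and 2.19% held Mn1. Median depth was 11159.5 UMIs in Dntt+ and 9520 UMIs in Dntt- cells, and its part in the CPM differences was not tested.

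With Ebf1, whose 62 UMIs in Dntt+ cells came from the precursor cells but for 1, 3 of the 10 genes were at least 2-fold higher in Dntt+ cells and 0 lower, against 1.71% and 6.54% of all genes. Pax5 and Spib were not measured. Without the precursor cells 2 were higher, Satb1 and Mn1. Over the 8 measured genes the median log2 ratio was 0.48, and over all genes -0.05. Ikzf1 was higher by less, at 107 CPM [92.7, 123] in Dntt+ and 75.8 CPM [70.5, 81.4] in Dntt- cells. Tox measured 31.2 CPM [23.8, 40.3] in Dntt+ and 29.7 CPM [26.4, 33.2] in Dntt- cells, and Tcf3 122 CPM [107, 139] and 114 CPM [107, 120.4], with overlap for both genes.

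In CPM, Satb1, Mn1, Ikzf1 and Bcl11a were each highest in the LSK cells with most Dntt. Of these genes, only Satb1 and Mn1 were so in the share of thinned cells over all cells of each class. The Ikzf1 share was 20.5% at 2 to 4 Dntt UMIs and 20% at 5 or more, or 21.3% in the latter without the precursor cells. In LSK cells with 0, 1, 2 to 4, and 5 or more Dntt UMIs (915, 63, 39 and 50 cells), Satb1 measured 18.7, 43.7, 97.6 and 179.8 CPM. Mn1 measured 8.04, 11.9, 23.4 and 49.9 CPM over the same classes, Ikzf1 75.8, 76.7, 99.8 and 147 CPM, and Bcl11a 93.0, 99.2, 110.4 and 134 CPM. Tcf3 measured 114, 112, 123 and 133 CPM, with thinned shares of 20.4%, 17.5%, 15.4% and 24%. Without the precursor cells the top class gave 190.2 CPM for Satb1, 56.0 CPM for Mn1, 159.6 CPM for Ikzf1, 132 CPM for Bcl11a and 119 CPM for Tcf3. In that class Ebf1 gave 93.7 CPM with the precursor cells and 1.70 CPM without them, and Foxo1 15.1 and 5.09 CPM. The Foxo1 log2 ratio of Dntt+ over Dntt- cells was 0.46 [-0.40, 1.25], and -0.25 without the precursor cells.

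LK cells repeated the Satb1 order, at 18.7, 61.7, 72.9 and 151 CPM over the same Dntt classes (3323, 56, 48 and 34 cells). Ebf1 gave no UMI in the 138 LK cells with Dntt. Mn1 measured 0.582, 4.2, 2.97 and 17.0 CPM there, on 28, 3, 2 and 7 UMIs, and Tox 1.81, 2.80, 4.46 and 12.2 CPM, on 87, 2, 3 and 5 UMIs. The 2 middle LK classes thus rest on 2 or 3 UMIs of each gene.

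**Figure D2:**
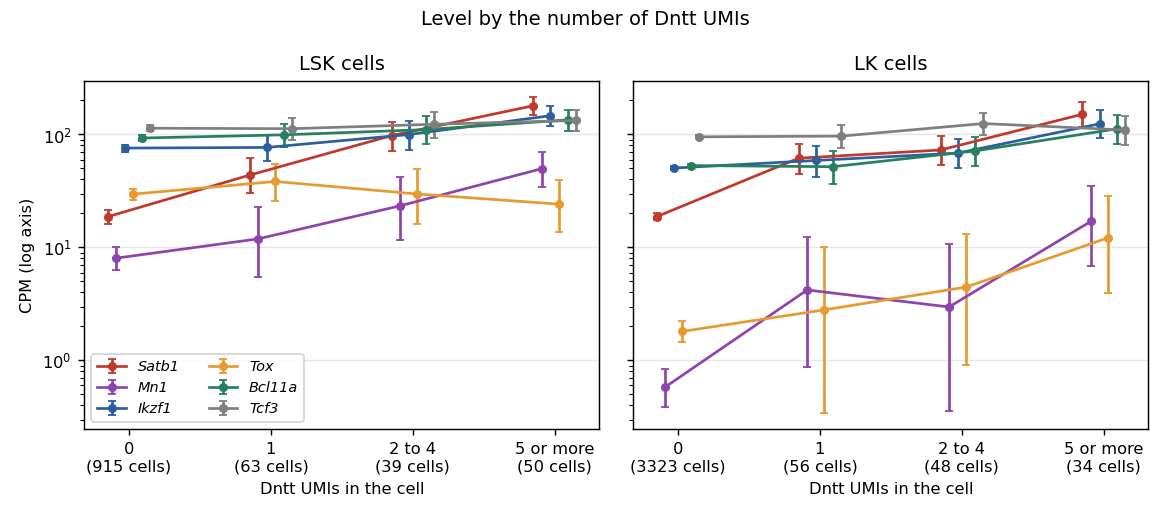
CPM on a log axis (y) of 6 genes in LSK cells (left) and LK cells (right) grouped by the number of Dntt UMIs in the cell (x), with exact 95% Poisson intervals for counting error as bars. Satb1 reaches 179.8 CPM in LSK cells with 5 or more Dntt UMIs, while Tox stays between 24.2 and 38.4 CPM over the LSK classes.

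Flt3 without Dntt went with Satb1. Among LSK cells without Dntt, Satb1 measured 30.9 CPM [26.1, 36.4] in 387 Flt3+ cells and 8.08 CPM [5.85, 10.9] in 528 Flt3- cells, a log2 ratio of 1.94 [1.44, 2.46]. It was the 1 gene of 10 that was at least 2-fold higher, and 0 were lower, against 1.01% and 3.12% of all genes, with Ebf1, Pax5 and Spib not measured. The median log2 ratio was -0.09 over the 7 measured genes and -0.01 over all genes. Mn1 measured 7.78 CPM in Flt3+ and 8.27 CPM in Flt3- cells, and 32.1 CPM [23.9, 42.4] in the 124 cells with both Flt3 and Dntt. In the 28 cells with Dntt and no Flt3, Mn1 measured 9.0 CPM [1.86, 26.3], on 3 UMIs, and Satb1 36.0 CPM [18.6, 62.9]. The Mn1 interval there overlapped those of the other 3 classes, and that of Satb1 lay above Flt3- Dntt- cells.

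Genes known to be controlled by Ebf1 or Pax5 differed in how far they were confined to the precursor cells. Of the 12 listed, 4 were at least 2-fold higher in Dntt+ than in Dntt- LSK cells (Igll1, Blnk, Vpreb1 and Cd79a), 0 were lower and 6 were not measured. The 3 precursor cells held 78 of 82 Igll1 UMIs, 71 of 98 Vpreb1 UMIs, 58 of 83 Cd79a UMIs and 26 of 39 Blnk UMIs of the library, where Vpreb1 and Cd79a had served to choose those cells. They held 27 of 428 UMIs of Cd79b, the partner of Cd79a, and 1 of 612 UMIs of Cd72, a B cell surface receptor, which were the most abundant of the listed genes in LSK. In the other Dntt+ cells Cd79a measured 0.551 CPM, against 2.41 CPM in Dntt- cells. Blnk, a signalling adaptor, measured 4.96 CPM in those other Dntt+ cells and 0.402 CPM in Dntt- cells, on 9 and 4 UMIs. Notch1, the receptor that starts the T cell path, measured 19.1 CPM in Dntt+ and 5.83 CPM in Dntt- cells, and Id1, an inhibitor of E proteins, 2.65 CPM and 12.6 CPM.

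The gate difference of Tox and Mn1 was present within each of the 3 larger classes by Flt3 and Dntt. Among Flt3- Dntt- cells Tox measured 31.4 CPM in LSK and 1.40 CPM in LK, a 22.4-fold difference (log2 4.48 [4.03, 4.96]). Among Flt3+ Dntt+ cells it measured 28.9 CPM in LSK and 5.34 CPM in LK (log2 2.44 [1.34, 3.73]), so that the interval lay below that of the Flt3- Dntt- cells. Mn1 measured 8.27 CPM in LSK and 0.458 CPM in LK among Flt3- Dntt- cells (log2 4.17 [3.34, 5.07]) and 32.1 CPM in LSK and 6.01 CPM in LK among Flt3+ Dntt+ cells (log2 2.42 [1.38, 3.63]). These Mn1 intervals overlapped. Flt3- Dntt+ cells were few, 28 in LSK and 27 in LK, with 14 and 2 Tox UMIs and 3 and 3 Mn1 UMIs.

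Satb1 differed by less than 2-fold between the gates in these classes. Among Flt3- Dntt- cells it was lower in LSK, with 8.08 CPM in LSK and 13.3 CPM in LK (log2 -0.72 [-1.20, -0.27]). Among Flt3+ Dntt- cells it measured 30.9 CPM in LSK and 37.0 CPM in LK (-0.26 [-0.55, 0.02]), and among Flt3+ Dntt+ cells 119.6 CPM in LSK and 89.5 CPM in LK (0.42 [0.09, 0.75]). Cells with Dntt made up 14.2% of LSK and 3.99% of LK. Over all Flt3+ cells, LSK over LK gave 5 of the 10 genes higher by 2-fold or more (Ebf1, Mn1, Tox, Foxo1 and Bcl11a) and 0 lower, against 14.7% and 2.6% of all genes, with Pax5 and Spib not measured. The 2 precursor cells with Flt3 supplied all but 1 of the 45 Ebf1 UMIs of this class, and 4 genes were higher without them.

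**Figure D3:**
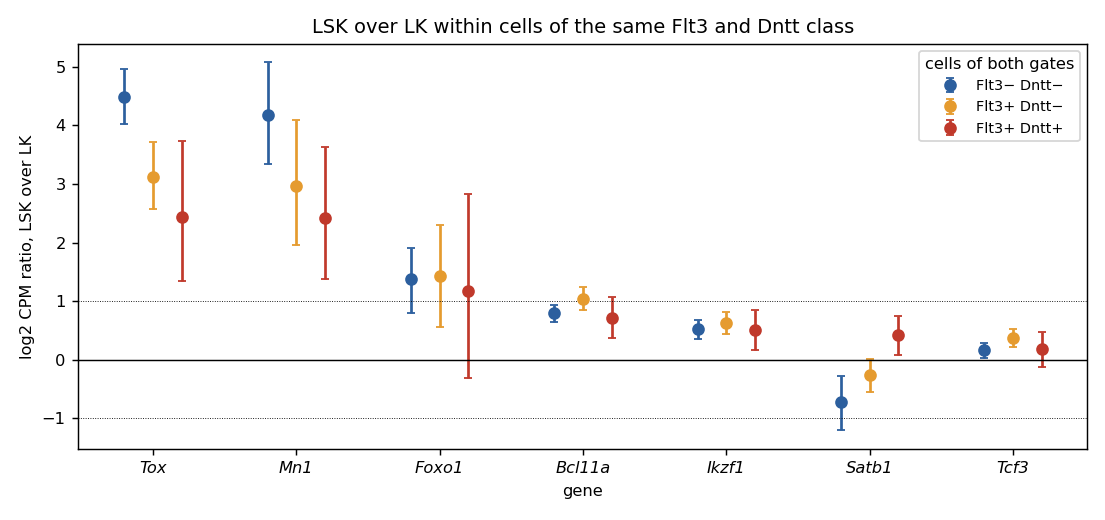
The log2 CPM ratio of LSK over LK (y) for 7 genes (x) within cells of the same Flt3 and Dntt class, with exact 95% intervals for counting error as bars and dotted lines at 2-fold. Tox and Mn1 lie above 2-fold in the 3 classes drawn, from 2.42 to 4.48, and Satb1 lies on both sides of 0.

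Total marrow was divided by 4 marker genes. Vpreb3, a gene of precursor and immature B cells, and Ighd, the IgD heavy chain gene of later B cells, gave 921 Vpreb3+ Ighd- cells, 366 cells with both and 260 Ighd+ Vpreb3- cells. Cd3e, a subunit of the T cell receptor complex, marked 98 cells, Siglech, a receptor of plasmacytoid dendritic cells, marked 40, 2517 cells had none of the 4 and 15 with markers of 2 lineages were kept apart. Other markers of B cells, T cells and plasmacytoid dendritic cells matched these classes. Cd79a measured 1637 CPM in Vpreb3+ Ighd- cells, 2203 CPM in Ighd+ Vpreb3- cells and 49.5 CPM in cells without markers. The summed level of 4 T cell markers came to 2055 CPM in Cd3e+ cells and 19.5 CPM without markers, and that of 4 plasmacytoid markers to 4372 CPM in Siglech+ cells. That of 3 plasma cell markers was 2260 CPM in Vpreb3+ Ighd- cells, 615 CPM in Vpreb3+ Ighd+ cells and 1524 CPM in Ighd+ Vpreb3- cells. It was 521 CPM without markers, and the part of plasma cells in these classes was not tested.

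Markers were also seen in cells that should lack them. A Vpreb3 UMI was present in 7.35% of 1578 TBM cells with at least 5% of their UMIs from the neutrophil granule genes S100a8 and S100a9, and in 13.3% of 429 cells with at least 20% globin UMIs. Such cells made up 167 of the 921 Vpreb3+ Ighd- cells (18.1%), 5 of 366 Vpreb3+ Ighd+, 20 of 260 Ighd+ Vpreb3-, 5 of 98 Cd3e+ and 8 of 40 Siglech+ cells. Values without these cells are given below for Ebf1, Pax5, Satb1, Tcf3, Bcl11a and Spib.

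The 3 B cell classes held 97.1% of the TBM UMIs of Ebf1, 95.2% of Pax5, 91.5% of Spib and 84.8% of Foxo1. Ebf1 measured 1666 CPM in Vpreb3+ Ighd- cells, 1918 CPM in Vpreb3+ Ighd+ cells, 1016 CPM in Ighd+ Vpreb3- cells and 15.0 CPM in cells without markers. Without the granule-rich and globin-rich cells the B cell classes gave 2381, 1991 and 1306 CPM, which puts Vpreb3+ Ighd- cells first in place of second. After thinning, Ebf1 was found in 60.4%, 88.4% and 66.7% of the B cell classes and 1.20% of granule-rich cells without markers. Unthinned, the shares were 76.2% of Vpreb3+ Ighd- cells at a median of 2251 UMIs and 3.04% of all granule-rich cells at 3396 UMIs. Thinning left out 370 of 921, 193 of 366 and 164 of 260 cells of the B cell classes. Without granule-rich and globin-rich cells, the thinned Ebf1 shares of the B cell classes were 81.9%, 90.5% and 82.9%.

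Pax5 measured 67.6 CPM [59.9, 76.0], 98.3 CPM [80.1, 119] and 68.3 CPM [51.0, 89.6] in Vpreb3+ Ighd-, Vpreb3+ Ighd+ and Ighd+ Vpreb3- cells, and 1.18 CPM [0.700, 1.87] in cells without markers. Without granule-rich and globin-rich cells the B cell classes gave 95.3 CPM [84.3, 107], 102 CPM [82.8, 123] and 84.9 CPM [63.0, 112], and all 3 intervals overlapped. Foxo1 measured 57.7, 82.8 and 51.2 CPM in the same B cell classes and 2.43 CPM in cells without markers, and Spib 313, 355 and 168 CPM and 5.31 CPM. These Foxo1 and Spib levels include the granule-rich and globin-rich cells, which made up 18.1%, 1.37% and 7.69% of the B cell classes. The order of the classes is thus not read from them. Thinned cells with Pax5 mostly held Ebf1 too, in 69 of 74 Vpreb3+ Ighd- cells, 35 of 36 Vpreb3+ Ighd+ cells and 9 of 11 Ighd+ Vpreb3- cells. Spib was found with Ebf1 in 184 of 198, 84 of 92 and 27 of 28 thinned cells with Spib in the same classes. Over all thinned cells of these classes Ebf1 was found in 60.4%, 88.4% and 66.7%. Without granule-rich and globin-rich cells those Ebf1 shares were 81.9%, 90.5% and 82.9%. The counts with Pax5 and Spib are to be read beside these shares.

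Of the 10 genes, 7 were at least 2-fold higher in Vpreb3+ Ighd- cells than in cells without markers and 0 lower, against 18.3% and 8.03% of all genes. They were Ebf1 (log2 6.80), Spib (5.88), Pax5 (5.84), Foxo1 (4.57), Tcf3 (2.82), Bcl11a (1.37) and Ikzf1 (1.14), with Mn1 not measured. Over the 9 measured genes the median log2 ratio was 2.82, and over all genes 0.44. Ighd+ Vpreb3- cells also gave 7 higher and 0 lower, against 19.3% and 9.81% of all genes, with Satb1 (2.14 [1.69, 2.57]) in place of Ikzf1 (0.74 [0.42, 1.05]) and Tox and Mn1 not measured. Both comparisons use the same cells without markers. All 12 listed genes under Ebf1 or Pax5 were higher in Vpreb3+ Ighd- cells, with Rag1, a subunit of the recombinase, at 27.8 CPM there and 0.131 CPM without markers, and Vpreb1 at 271 and 2.36 CPM. Tcf12, another E protein, measured 60.4 and 8.46 CPM.

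Later and earlier B cells differed in Satb1, Bcl11a and Tcf3. Satb1 measured 71.0 CPM [53.3, 92.6] in Ighd+ Vpreb3- cells and 28.7 CPM [23.8, 34.4] in Vpreb3+ Ighd- cells, and Bcl11a 124 CPM [99.8, 151] and 60.4 CPM [53.1, 68.3]. Tcf3 measured 125 CPM [101, 153] in Ighd+ Vpreb3- cells and 362 CPM [343, 380.3] in Vpreb3+ Ighd- cells. None of these pairs overlapped. This made 2 genes at least 2-fold higher and 1 lower, against 5.76% and 11.4% of all genes, with Tox and Mn1 not measured. Ebf1 (log2 -0.71 [-0.82, -0.61]) and Spib (-0.90 [-1.17, -0.63]) were lower by less than 2-fold, and Pax5 (0.01 [-0.44, 0.45]) had an interval that spans 0. With classes taken from cells thinned to 2000 UMIs, 0 genes were at least 2-fold higher and 1 lower.

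Without granule-rich and globin-rich cells, Satb1 measured 84.9 CPM in Ighd+ Vpreb3- and 33.7 CPM in Vpreb3+ Ighd- cells, and Tcf3 146 and 500.1 CPM. Bcl11a then measured 156 CPM in Ighd+ Vpreb3- and 84.9 CPM in Vpreb3+ Ighd- cells, less than 2-fold apart, and Spib 214 and 448 CPM, more than 2-fold apart. With all cells of both classes again, 1 of 12 genes under Ebf1 or Pax5 was at least 2-fold higher in the later class and 5 lower. Vpreb1 measured 2.63 CPM in Ighd+ Vpreb3- and 271 CPM in Vpreb3+ Ighd- cells, and Igll1, also a surrogate light chain gene, 5.26 and 281 CPM. Ikzf3, the relative of Ikzf1 that encodes Aiolos, measured 65.7 CPM in the later and 32.4 CPM in the earlier class.

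Cd3e+ cells carried Tox, Satb1 and Foxo1 without Ebf1 or Pax5. Tox measured 60.2 CPM [38.2, 90.3] in Cd3e+ cells and 0.918 CPM [0.502, 1.54] in cells without markers, and 23 of its 47 TBM UMIs lay in those 98 cells. Satb1 measured 149 CPM [113, 193] in Cd3e+ cells and 16.1 CPM [14.1, 18.2] without markers, and Foxo1 52.4 CPM [32.0, 80.9] and 2.43 CPM [1.71, 3.35]. After thinning, 39.0% of Cd3e+ cells held Satb1, 15.6% Foxo1 and 13% Tox, against 5.12%, 0.100% and 0% of granule-rich cells without markers. Ebf1, Pax5 and Mn1 had 0 UMIs in Cd3e+ cells, which allows a level of up to 7.85 CPM for each. Cells with Vpreb3 or Ighd were left out of the Cd3e+ class by definition. The 15 cells with markers of 2 lineages, kept apart from these classes, held 57 Ebf1 and 4 Pax5 UMIs. The Tox share of 0 of 997 granule-rich cells allows up to 0.301%.

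In all, 4 of the 10 genes were at least 2-fold higher in Cd3e+ cells (Tox, log2 6.03 [5.01, 7.11], Foxo1, 4.43, Satb1, 3.21, and Ikzf1, 1.28) and 2 lower, against 24.9% and 11% of all genes, with Pax5 and Mn1 not measured. The lower genes, Bcl11a and Spib, had 3 and 1 UMIs in Cd3e+ cells, and the Spib interval spans 0 (-1.02 [-6.34, 1.5]). With any cell that has Cd3e in place of this class, more genes were higher and 0 were lower. For this class against granule-rich cells in place of all cells without markers, 0 genes were lower. The median log2 ratio was 0.79 over the 8 measured genes and 0.30 over all genes. Of 8 T and NK cell factors, 7 were higher and 0 lower. Bcl11b, a relative of Bcl11a needed for T cell commitment, measured 170.2 CPM in Cd3e+ cells and 0.853 CPM without markers, and Tcf7, a T cell factor, 196 and 1.77 CPM. The 4 NK cell markers summed to 1390 CPM in Cd3e+ cells and 229 CPM in cells without markers, and their part in these levels was not tested.

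Siglech+ cells shared Spib and Bcl11a with B cells and had almost no Ebf1. Spib measured 256 CPM [199, 324] in Siglech+ cells and 5.31 CPM [4.22, 6.60] in cells without markers. Its Siglech+ interval overlapped those of the 3 B cell classes, but those of Vpreb3+ Ighd+ and Ighd+ Vpreb3- cells only at their ends. Bcl11a measured 275 CPM [216, 345] in Siglech+ cells and 23.3 CPM [20.9, 25.8] without markers, above the intervals of the 3 B cell classes. Ikzf1 measured 204 CPM [154, 266] and 72.3 CPM [68.1, 76.7] in those classes. Ebf1 had 1 UMI and Pax5 0 in Siglech+ cells. Cells with Vpreb3 or Ighd were left out of this class by definition. With any cell that has Siglech, the Ebf1 log2 ratio over cells without markers was positive. Without the granule-rich and globin-rich cells, Spib and Bcl11a each measured 351 CPM in the 32 Siglech+ cells left.

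Here 5 of the 10 genes were at least 2-fold higher in Siglech+ cells and 1 lower, against 26.3% and 7.35% of all genes, with Pax5, Tox and Mn1 not measured. Spib (log2 5.59 [5.11, 6.07]), Bcl11a (3.56 [3.18, 3.93]) and Ikzf1 (1.5 [1.08, 1.89]) had intervals above 0. Those of Satb1 (1.06 [-0.09, 2.01]), Foxo1 (1.61 [-1.48, 3.57]) and Ebf1, the lower gene (-2.01 [-7.32, 0.48]), span 0. Without the cell with most UMIs of each gene, 3 were higher and 0 lower. Over the 7 measured genes the median log2 ratio was 1.5, and over all genes 0.39. Of 7 plasmacytoid factors, which include Spib and Bcl11a, 6 were higher and 0 lower, among them Tcf4, the E protein of this lineage, at 494 CPM in Siglech+ cells and 12.8 CPM without markers, and Runx2 at 208 and 6.43 CPM.

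Ikzf1, Tcf3 and Satb1 were also found outside the lymphoid classes. Among cells without markers, Ikzf1 measured 83.1 CPM in 1442 granule-rich cells, 22.9 CPM in 359 globin-rich cells and 82.0 CPM in the other 716. Tcf3 measured 22.4, 75.8 and 73.2 CPM in these classes, and Satb1 23.3, 1.52 and 14.2 CPM. Ikzf1 and Satb1 were thus lowest in globin-rich cells, and Tcf3 in granule-rich cells. In LK, 420 cells with at least 3 UMIs of the erythroid gene Car1 held Tcf3 at 175 CPM and Bcl11a, known in human cells for silencing fetal globin genes, at 152 CPM, with Satb1 at 1.43 CPM and no UMI of Ebf1 or Pax5.

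**Figure D4:**
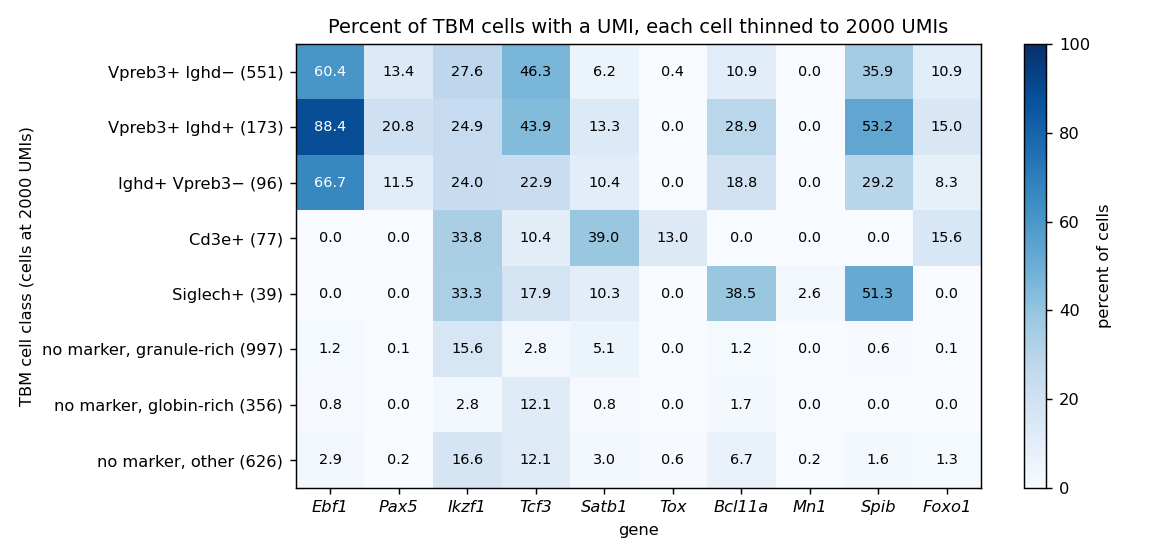
Percent of TBM cells with a UMI of each gene (x) in 8 cell classes (y), each cell thinned to 2000 UMIs, with the number of cells that reached this depth in brackets. Colour and printed value show the same percent. Ebf1 reaches 88.4% in Vpreb3+ Ighd+ cells, Satb1 39.0% in Cd3e+ cells, and Spib 51.3% and Bcl11a 38.5% in Siglech+ cells.

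Dividing precursors had lower CPM of the B cell factors, but Ebf1 and Pax5 did not have fewer UMIs per cell. Of the Vpreb3+ Ighd- cells, 246 held a UMI of the proliferation genes Mki67 or Top2a and 675 did not, at median depths of 7674 and 1937 UMIs. Ebf1 measured 844 CPM in dividing and 2694 CPM in other cells, and 7.89 and 7.34 UMIs per cell. Tcf3 measured 312 CPM in dividing and 424 CPM in other cells, and 2.91 and 1.16 UMIs per cell. Spib was lower on both scales, at 105 CPM in dividing and 573 CPM in other cells and 0.984 and 1.56 UMIs per cell. Pax5 gave 0.394 and 0.271 UMIs per cell in dividing and other cells, and Foxo1 0.232 and 0.270. The per-cell log2 ratio of Foxo1 was -0.22 [-0.67, 0.22], an interval that spans 0. A deeper cell is more likely to show Mki67 or Top2a, and the part of depth in these differences was not tested.

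On the CPM scale 5 of the 10 genes were at least 2-fold lower in dividing cells (Spib, Foxo1, Ebf1, Pax5 and Bcl11a) and 0 higher, against 11.8% and 16.1% of all genes for higher and lower, with Tox and Mn1 not measured. The median log2 ratio was -1.12 over the 8 measured genes and -0.18 over all genes. Per cell, none was 2-fold lower, and Tcf3 (log2 1.33 [1.19, 1.48]) and Ikzf1 (1.15 [0.93, 1.38]) were at least 2-fold higher. Granule-rich or globin-rich cells made up 87 of the 246 dividing cells and 80 of the 675 others. Without them Ebf1 measured 1314 CPM in dividing and 3458 CPM in other cells, and 11.9 and 8.31 UMIs per cell, and 3 genes (Spib, Foxo1 and Ebf1) were at least 2-fold lower in CPM. With all cells of both groups again, 8 of 12 genes under Ebf1 or Pax5 were at least 2-fold lower in CPM and 0 higher. Ikzf3 measured 8.26 CPM in dividing and 62.5 CPM in other cells. The list of 12 was not recounted without granule-rich and globin-rich cells.

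**Figure D5:**
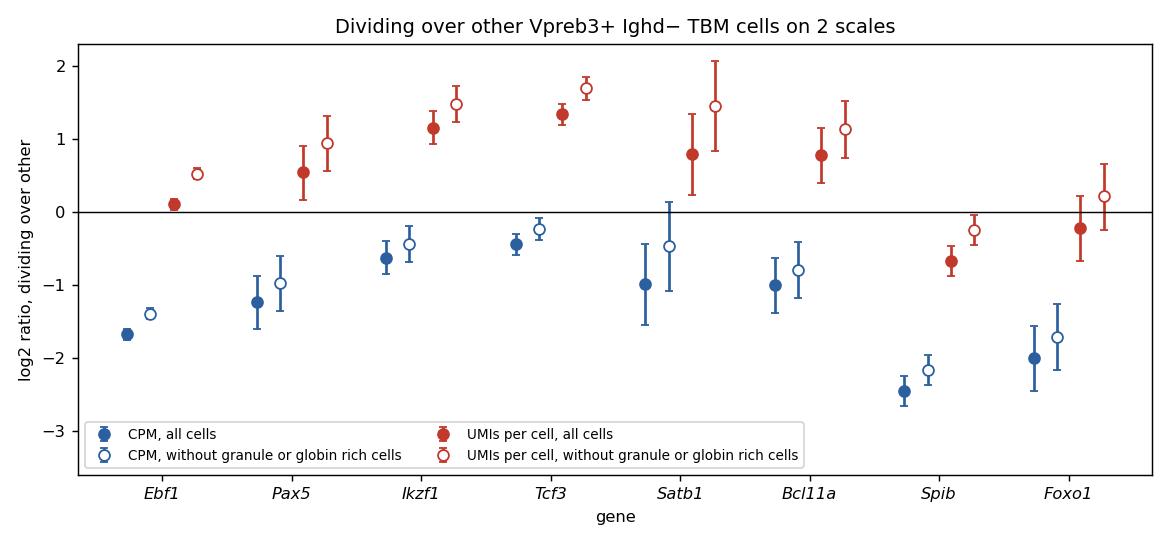
The log2 ratio of dividing over other Vpreb3+ Ighd- TBM cells (y) for 8 genes (x), as CPM and as UMIs per cell, with and without granule-rich and globin-rich cells, and exact 95% intervals for counting error as bars. All 8 genes lie below 0 in CPM, and with all cells 6 of them lie above 0 in UMIs per cell, from 0.10 for Ebf1 to 1.33 for Tcf3.

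The genes with the most similar patterns were found from Pearson's r of log2(CPM + 10) over 14 classes (4 in LSK, 4 in LK and 6 in TBM) among 10401 genes with at least 200 UMIs. The classes share 3 libraries and differ in depth, so r is a description. Ebf1 was most like Cd79a (0.98), Pou2af1 (0.98) and Pax5 (0.98), Pax5 most like Pou2af1 (0.99), Gm30211 (0.99) and Cd79b (0.99), and Spib most like Fcrla (0.99), Tmem163 (0.97) and A430035B10Rik (0.97). Foxo1 followed Tmem108 (0.96), Dusp11 (0.96) and Ppp1r16b (0.95), and Tcf3 Bcl7a (0.97), Neil1 (0.93) and Myl4 (0.93). Tox followed Hdgfl3 (0.95), Plekha5 (0.95) and Zfp12 (0.95), Mn1 Calcrl (0.88), Tmem121 (0.87) and Slc16a11 (0.86), and Bcl11a Mef2c (0.93), Senp5 (0.93) and Med7 (0.91). Satb1 followed Lrrc8c (0.88), Arap2 (0.82) and Tespa1 (0.81), and Ikzf1 Itpr2 (0.93), Leng8 (0.92) and Cd2ap (0.92). Among the 10 genes, Ebf1 had an r of 0.98 with Pax5, 0.80 with Foxo1, 0.79 with Spib, 0.77 with Tcf3, 0.15 with Satb1 and -0.32 with Tox.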

How the data were processed

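The deposited matrices hold UMI counts that were not normalized, 1 for each gene and barcode, whole numbers per the file headers, made by the authors with Cell Ranger 4.0.0 on build mm10, per the submitters' processing notes. The sources used here name neither the annotation release nor the cell calling. The matrices held 1091 LSK, 3560 LK and 4317 TBM barcodes, where the labels' protocol states 1070, 3441 and 3984 cells. Cells with under 200 genes or over 10% mitochondrial UMIs were removed, leaving 1070, 3464 and 4290, and then Scrublet's doublet calls (3, 3 and 73 cells, scanpy 1.11.5).

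UMIs were summed per library and marker class (at least 1 UMI of the marker) and divided by total UMIs with numpy 2.4.6. Intervals are 95% exact (Poisson for CPM, Clopper-Pearson for shares, conditional binomial for ratios, scipy 1.17.1), and cover counting error only. They were tested on simulated data. The limit that a count of 0 allows is 3 counts. A gene was measured in a comparison with at least 20 UMIs over both sides.

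The members and the gene lists were chosen with earlier results of these data known. Named from each list were up to 4 genes per comparison with the largest absolute log2 ratio, any relative of a member, and for each member the 3 genes of most similar pattern. The 3 precursor cells of LSK were singled out after values were seen. Alternatives tried were other cell filters, doublets kept, other totals and minimums, equal weight for each cell, other marker rules and other thinning depths.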

Additional observations from a re-analysis of the deposited data

How the results depend on the processing

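Of 307 recomputed counts over the 10 genes, 277 stayed within 1.5 times the reported count and 30 did not. Of the ratios and shares of single genes, 1096 kept their value within the limits set, 268 moved and 9 changed sign. A change of sign was counted only for ratios that were at least 2-fold as reported. The counts for LSK over LK, LSK over TBM, Dntt, Flt3 and both B cell classes over cells without markers (LSK over LK among Flt3+ cells included) stayed within 1.5 times under every alternative run. In LK over TBM the count of higher genes was 1 with equal weight for each cell, 1 without the cell with most UMIs and 5 in UMIs per cell. For Ighd+ Vpreb3- over Vpreb3+ Ighd- cells the higher count was 1 with doublet calls kept, 1 with classes from 2 UMIs, 0 with classes from thinned cells, 1 without granule-rich and globin-rich cells and 0 per cell, and the lower count was 2 with equal weight, 2 with 2 UMIs, 2 without rich cells and 4 per cell. For Cd3e+ cells 7 genes were higher when any cell with the marker was taken, and the lower count was 1 without the top cell, 0 with 2 UMIs, 0 with thinned cells, 0 with any cell, 0 against granule-rich cells and 1 without rich cells. For Siglech+ cells 3 were higher without the top cell, and 0, 0 and 0 lower without the top cell, with any cell and against granule-rich cells. For dividing cells 2 were higher per cell and 4 per cell without rich cells, while 3 were lower with 2 UMIs, 1 with thinned cells, 3 without rich cells and 0 and 0 on the per-cell scales. Ratios of at least 2-fold that changed sign were, as log2, Spib in Cd3e+ cells (1.96) and Ebf1 in Siglech+ cells (1.55) with any cell that has the marker. In dividing cells per cell, Ebf1 gave 0.10, Pax5 0.54 and Bcl11a 0.77, and per cell without rich cells 0.52, 0.94, 1.13 and, for Foxo1, 0.21. Smaller ratios that changed sign are not among the 9. In dividing cells Ikzf1 went from -0.63 in CPM to 1.15 per cell, Tcf3 from -0.44 to 1.33 and Satb1 from -0.99 to 0.79. The causes were not tested. UMIs per cell, the removal of granule-rich and globin-rich cells or of B cell precursors, and the single-class gate comparisons were chosen after seeing the data. No paired analysis was possible because each gate has 1 library and nothing was tested. Values of Pax5 and Spib in both progenitor gates, and of Tox and Mn1 in most TBM classes, rest on few UMIs and have wide intervals.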
